A study of Mus musculus with 4 samples.

Results

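The genes described here are 10 transcriptional regulators of cardiac energy metabolism, Ppargc1a, Ppargc1b, Esrra, Esrrb, Esrrg, Ppara, Ppard, Rxra, Nrf1 and Tfam, chosen by symbol from the 32285 genes of the deposited matrices. All 10 were found, and all 10 passed the minimum of 20 unique molecular identifiers (UMIs) over the libraries of a pair in each of the 4 comparisons. The samples were 4 droplet libraries of left ventricle from male wild-type C57BL/6J mice, 1 library for each condition, namely sham and I/R at a young age of 3 to 5 months and the same at an age of 24 to 26 months. I/R stands for 45 min of ischemia followed by 24 h of reperfusion. The labels title the control samples sham, yet describe them elsewhere as healthy and unaltered, and name nuclear RNA as the molecule, whereas the paper describes sham operations and single-cell suspensions, and how many mice went into a library is not given in the sources used here. With 1 library per condition there were no replicates, so no difference below was tested, and every interval is a 95% interval for counting error only.

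These regulators set how much fat and sugar the heart muscle burns and how many mitochondria it keeps. The coactivators PGC-1α and PGC-1β (Ppargc1a, Ppargc1b) bind no DNA themselves and work through nuclear receptors, above all the estrogen-related receptors (Esrra, Esrrb, Esrrg), which need no hormone, and the fatty acid receptors PPARα and PPARδ (Ppara, Ppard), which bind DNA as pairs with RXRα (Rxra). Nuclear respiratory factor 1 (Nrf1) switches on nuclear genes for the respiratory chain, among them Tfam, whose protein enters the mitochondria, packs their DNA and starts its transcription.

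Since several of these proteins bind DNA, the 250 bases before each RefSeq start site (GRCm38.p6) were searched on both strands for the letters they read. RefSeq promoters of 9 of the 10 genes were searched, with 15 start sites in all, and Ppargc1b was left out of the search. The letters searched were AGGTCA, the core read by many nuclear receptors, the extended core AAGGTCA read by the estrogen-related receptors, AGGTCANAGGTCA, which is a direct repeat of the core and the element of PPAR and RXR pairs, GCGCNNGCGC, which is the core of an NRF1 site, and TGACGTCA, the cyclic AMP response element. Over 32851 mouse promoters of the same length these were found in 14.0%, 4.08%, 0.0335%, 4.98% and 1.55%. Among the regulators, 2 of 15 promoters held a match and 13 held none. The 3 windows with a match are shown with the matched letters in capitals, because they carry all the matches found. The window of Ppara, chr15:85735735-85735764 on the plus strand, holds an NRF1 core 31 bases before the start. That window lies in an intron of the GENCODE gene, outside its exons. The windows of Rxra, also intronic, lie on the plus strand before an internal start site, at chr2:27709193-27709222 with the receptor core on the opposite strand 87 bases before the start, and at chr2:27709231-27709260 with the extended core 49 bases before it, whose last 6 letters are also a receptor core. For Ppargc1a, 249 bases that end at the first exon, chr5:51567727-51567975 on the minus strand, are shown as the promoter of the coactivator, with none of the searched letters in them. A match is a string of letters and no measured binding.
Ppara window: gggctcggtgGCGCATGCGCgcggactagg
Rxra first window: tagaaatgggtgTGACCTgagtaatggtca
Rxra second window: tgggtggcaggaAAGGTCAgtcactctctg
Ppargc1a upstream: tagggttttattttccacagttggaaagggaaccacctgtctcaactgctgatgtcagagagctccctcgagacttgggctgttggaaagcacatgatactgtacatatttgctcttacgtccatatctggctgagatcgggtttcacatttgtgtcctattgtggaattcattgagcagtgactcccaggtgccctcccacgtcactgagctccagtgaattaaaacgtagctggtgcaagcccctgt

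The libraries differed in depth and make-up, and the values below are to be read beside these differences. They held 25836175 to 66767829 UMIs over 91124 to 102883 barcodes, with a median of 244 UMIs per barcode in young sham and 675 in aged I/R. Young sham stood apart, with 28.4% of its barcodes at 200 or more detected genes against 98.8% in aged I/R, and with the largest share of UMIs in the nuclear RNA Malat1, 7.34% against 4.33% in aged I/R, 2.88% in aged sham and 2.22% in young I/R. Young I/R had the largest share in Gm42418, 19.4% against 11.5% to 14.0% in the other libraries. Mitochondrially encoded genes took 10.0% in young sham and 9.98% in aged I/R, but 14.1% in young I/R and 15.6% in aged sham. The libraries with the larger Malat1 shares thus had the smaller mitochondrial shares. None of these shares was tested for its part in the regulators' levels. A pair of libraries shared 2366 to 2843 barcode sequences. All 18 cardiomyocyte markers were detected in each library with a summed level of 81589 to 105360 CPM, where 10000 CPM is 1% of a library's UMIs. Summed levels of other cell types' markers ran from 1375 to 1751 CPM for 18 endothelial, 1182 to 2031 CPM for 16 fibroblast and 373 to 637 CPM for 19 macrophage genes. The 5 erythroid markers summed to 2567 and 1957 CPM in young sham and I/R and to 1691 and 1025 CPM in aged sham and I/R. The 6 neutrophil markers summed to 14.7 and 24.6 CPM in young and aged sham and to 101 CPM in each I/R library. The median log2 ratio of all genes was not at 0 either: it was -0.51 in young I/R over young sham, 0.09 in aged I/R over aged sham, -0.14 in aged over young sham and 0.47 in aged over young I/R. Ratios below are of CPM, and where the median of all genes as the reference turns the direction of a regulator this is stated.

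Over the 10 regulators together, 13744 and 10848 UMIs were counted in the sham and I/R libraries of young mice and 14995 and 30296 in those of aged mice, which is 532, 273, 363 and 454 CPM. The sum was lowest in young I/R and highest in young sham, and each of the 10 regulators had its lowest level in young I/R, as did 62.7% of the 16218 genes with at least 40 UMIs over the 4 libraries. In sums over whole libraries, fewer cells of a type and less RNA per cell cannot be told apart. Ppargc1b, Esrra, Ppara, Ppard and Nrf1 had the same order of libraries, young sham, aged I/R, aged sham and then young I/R, which was also the order of Malat1. That order was held by 5 of the 10 regulators and by 21.9% of the 16218 genes, and the part of Malat1-rich material in it was not tested.

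**Figure D1:**
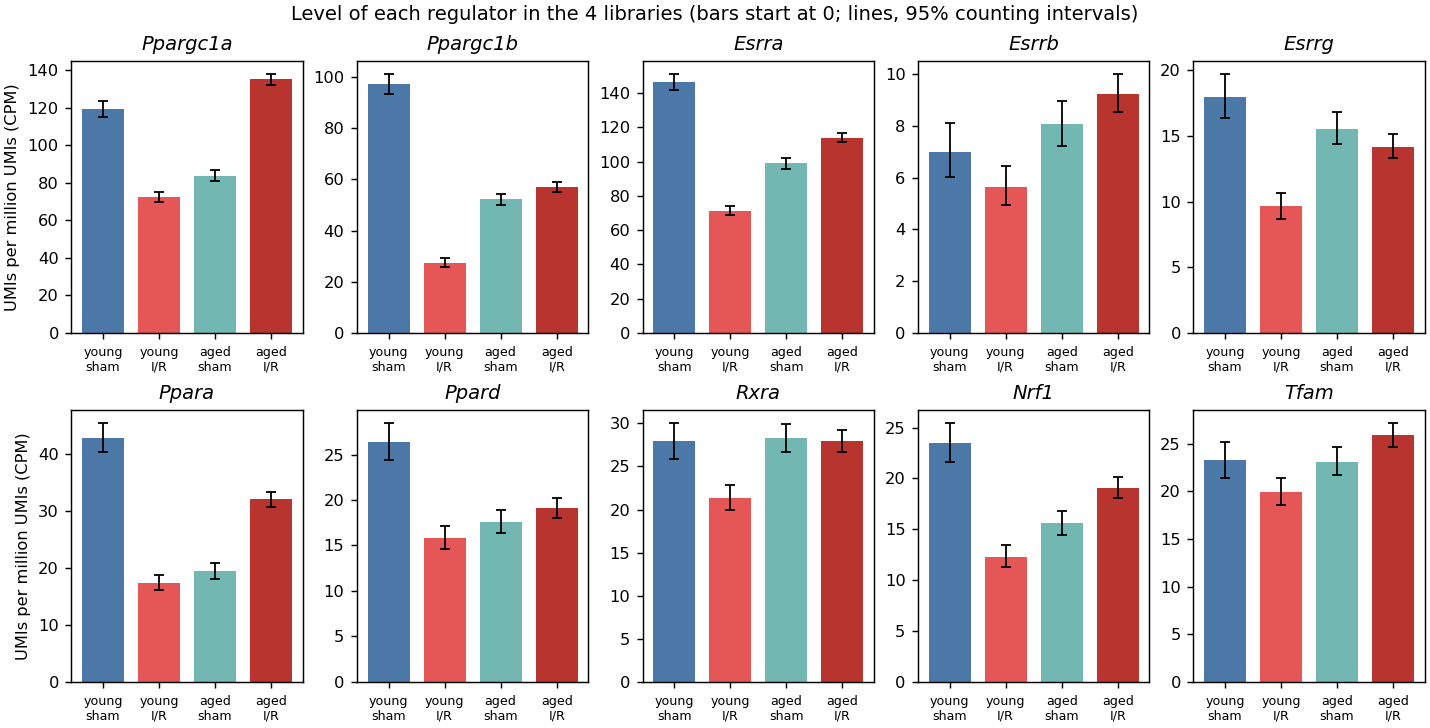
Level of each regulator in CPM in the 4 libraries, 1 bar per library on an axis that starts at 0, with 95% exact Poisson intervals as lines. Each regulator is lowest in young I/R; Ppargc1b runs from 27.4 CPM there to 97.3 CPM in young sham, while Rxra and Tfam stay within 1.32-fold and 1.30-fold from the lowest to the highest library.

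The coactivators differed in their I/R over sham ratios at both ages. Ppargc1a (ENSMUSG00000029167, chromosome 5, 51454250 to 51567726, minus strand, GRCm38), the coactivator that cold, fasting and exercise induce, stood at 119 and 72.4 CPM in the sham and I/R libraries of young mice and 83.8 and 135 CPM in those of aged mice. In order of level, all neighbouring libraries were apart by more than their counting intervals, and aged I/R was the highest library. I/R over sham was 1.65-fold lower in young mice (log2 -0.72, interval -0.79 to -0.65) and 1.61-fold higher in aged mice (log2 0.69, interval 0.63 to 0.75). Ppargc1b (ENSMUSG00000033871, chromosome 18, 61298136 to 61400431, minus strand), its close relative with a steadier role in mitochondrial upkeep, stood at 97.3 and 27.4 CPM in the sham and I/R libraries of young mice and 52.2 and 57.0 CPM in those of aged mice. Of the 10 regulators it had the largest span, 3.55-fold between young I/R and young sham (log2 -1.83, interval -1.93 to -1.72), a ratio below which 7.60% of 15465 genes lay. In aged mice its I/R over sham ratio was near 1 (log2 0.13, interval 0.05 to 0.20). In the age comparisons the coactivators lay on the same side of 0, with Ppargc1a at log2 -0.51 and Ppargc1b at -0.90 in aged over young sham, and 0.90 and 1.05 in aged over young I/R, where their intervals overlapped.

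The ratio of UMIs of Ppargc1a to those of Ppargc1b within a library does not depend on the library's total. It was 1.23 (interval 1.16 to 1.29) in young sham and 2.64 (2.46 to 2.83) in young I/R. In aged mice it was 1.60 (1.52 to 1.69) in sham and 2.37 (2.28 to 2.46) in I/R. So the I/R library had more Ppargc1a UMIs for each Ppargc1b UMI at both ages, and the sham and I/R intervals did not overlap at either age, while those of the I/R libraries overlapped each other. UMIs were not divided by transcript length, so the ratios compare libraries and say nothing of which transcript was more abundant.

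Among the estrogen-related receptors, Esrra had the lowest I/R over sham ratio in young mice, but its interval overlapped that of Esrrg (-1.10 to -0.70). UMIs of Esrra per UMI of Esrrg were 8.14 (interval 7.39 to 8.98) in young sham and 7.42 (6.67 to 8.28) in young I/R, which overlapped. Esrra (ENSMUSG00000024955, chromosome 19, 6910977 to 6921813, minus strand), the main partner of PGC-1α on genes of oxidative phosphorylation, stood at 147 and 71.5 CPM in the sham and I/R libraries of young mice and 99.0 and 114 CPM in those of aged mice, with no overlap between neighbours. I/R over sham was 2.05-fold lower in young mice (log2 -1.04, interval -1.11 to -0.96) and 1.15-fold higher in aged mice (log2 0.21, interval 0.15 to 0.26). Its span overlaps Trmt112 on the opposite strand, which took 2960 UMIs over the 4 libraries beside 18333 for Esrra, and since use of strand in counting is not given in the sources used here, reads of the overlap cannot be assigned with certainty.

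Esrrg (ENSMUSG00000026610, chromosome 1, 187608791 to 188214885, plus strand), the receptor tied to the switch of the heart to oxidative metabolism after birth, stood at 18.0 and 9.63 CPM in the sham and I/R libraries of young mice and 15.5 and 14.2 CPM in those of aged mice. Only young I/R was set apart from its neighbour by more than the intervals, and I/R over sham was log2 -0.90 (interval -1.10 to -0.70) in young and -0.13 (interval -0.28 to 0.01) in aged mice. The 2 antisense genes within its span took 60 UMIs in all. Esrrb (ENSMUSG00000021255, chromosome 12, 86361117 to 86521628, plus strand), known best from stem cells, was sparsest, with 181 and 224 UMIs in the sham and I/R libraries of young mice and 333 and 617 UMIs in those of aged mice. Its levels of 7.01, 5.65, 8.05 and 9.24 CPM overlapped between all neighbours, and its I/R over sham ratio in young mice, log2 -0.31, lay 0.20 above the all-gene median. UMIs of Esrra per UMI of Esrrb were 20.9 (interval 18.0 to 24.4) in young sham and 12.3 to 12.7 in the other libraries, so young sham was apart from the other three.

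Ppara differed most of the fatty acid receptors. Ppara (ENSMUSG00000022383, chromosome 15, 85734983 to 85802819, plus strand), which drives uptake and oxidation of fatty acids in heart muscle, stood at 42.8 and 17.3 CPM in the sham and I/R libraries of young mice and 19.4 and 32.0 CPM in those of aged mice. Young I/R and aged sham overlapped, and both were well below the other pair. I/R over sham was 2.47-fold lower in young mice (log2 -1.30, interval -1.44 to -1.16) and 1.65-fold higher in aged mice (log2 0.72, interval 0.60 to 0.84), and 17.3% and 87.9% of genes had lower ratios. Aged over young sham was 2.21-fold lower (log2 -1.14, interval -1.27 to -1.01), which puts Ppara lower than all but 5.27% of 15875 genes in that comparison. Ppard (ENSMUSG00000002250, chromosome 17, 28232700 to 28301474, plus strand), the broadly expressed sister receptor, stood at 26.4 and 15.9 CPM in the sham and I/R libraries of young mice and 17.6 and 19.1 CPM in those of aged mice, and only young sham was apart from its neighbour. Its I/R over sham ratio was log2 -0.74 (interval -0.89 to -0.58) in young and 0.12 (interval -0.01 to 0.25) in aged mice.

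Rxra and Tfam varied least between libraries. Rxra (ENSMUSG00000015846, chromosome 2, 27676440 to 27762957, plus strand), the pairing partner of the PPARs, stood at 27.9 and 21.3 CPM in the sham and I/R libraries of young mice and 28.2 and 28.0 CPM in those of aged mice, and the 3 libraries other than young I/R overlapped. Its I/R over sham ratio was log2 -0.39 (interval -0.53 to -0.24) in young and -0.01 (interval -0.12 to 0.09) in aged mice, but in young mice it was 0.13 with the median of all genes as the reference. Nrf1 (ENSMUSG00000058440, chromosome 6, 30047988 to 30153458, plus strand) stood at 23.5 and 12.3 CPM in the sham and I/R libraries of young mice and 15.6 and 19.1 CPM in those of aged mice, with no overlap between neighbours. Tfam (ENSMUSG00000003923, chromosome 10, 71225464 to 71238280, minus strand) stood at 23.3, 19.99, 23.1 and 25.9 CPM in the same libraries, and only young I/R was apart from its neighbour. I/R over sham in young mice was log2 -0.93 for Nrf1 and -0.22 for Tfam, the latter 0.29 above the all-gene median, and 0.29 and 0.16 at the older age.

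UMIs of Ppara per UMI of Rxra were 1.53 (interval 1.39 to 1.69) in young sham and 1.14 (1.07 to 1.22) in aged I/R, and 0.812 (0.733 to 0.899) in young I/R and 0.687 (0.627 to 0.752) in aged sham. Per UMI of Ppard they were 1.62 and 1.67 in the first pair of libraries and 1.09 and 1.10 in the second. Young sham and aged I/R thus formed a high pair and young I/R and aged sham a low pair for Ppara against either partner. The same split was found for Ppargc1a per UMI of Tfam, at 5.13 (interval 4.70 to 5.61) and 5.21 (4.95 to 5.49) in the high pair and 3.62 (3.35 to 3.92) and 3.62 (3.37 to 3.89) in the low pair. Malat1, at 7.34% and 4.33% in the high pair and 2.22% and 2.88% in the low pair, was split in the same way, and its part in these ratios was not tested.

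**Figure D2:**
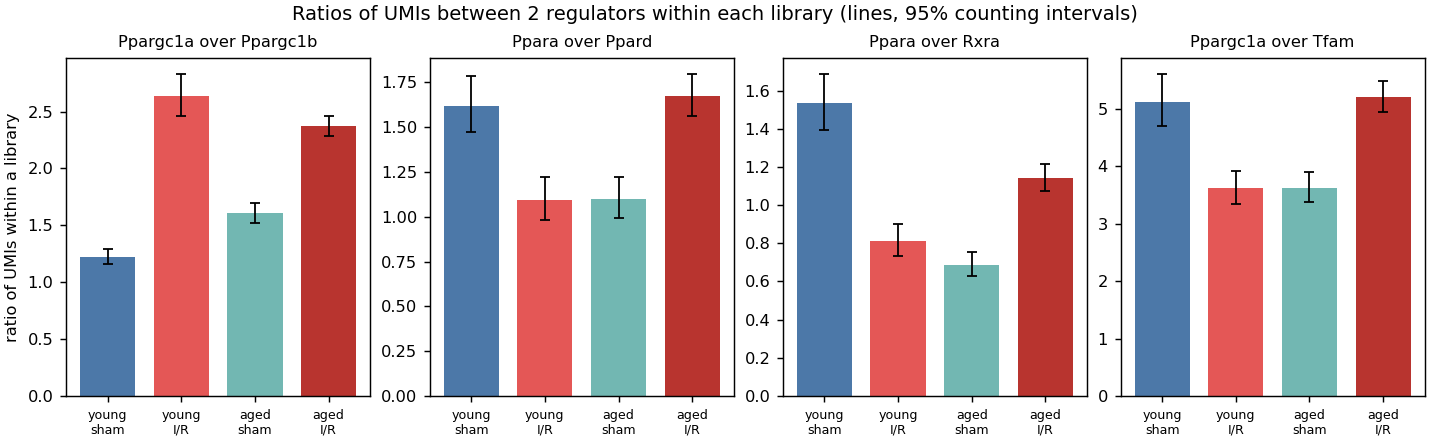
UMIs of one regulator divided by those of another within each library, 1 bar per library on axes that start at 0, with 95% exact conditional intervals as lines. Ppargc1a over Ppargc1b is higher in I/R at both ages (2.64 and 2.37 against 1.23 and 1.60), while the other 3 ratios are highest in young sham and aged I/R.

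The first comparison was of young I/R over young sham. All 10 regulators were below 0 and 7 were at least 1.5-fold lower (Ppargc1a, Ppargc1b, Esrra, Esrrg, Ppara, Ppard and Nrf1), none was 1.5-fold higher, and the median of the 10 was log2 -0.82. Over all 15465 genes 46.1% were 1.5-fold lower and 6.36% higher. Their median was -0.51 and their upper quartile -0.03, so most of all genes were below 0 too. With the median of all genes as the reference, Ppargc1b (-1.31) and Ppara (-0.79) remained past 1.5-fold and Esrrb, Rxra and Tfam turned to 0.20, 0.13 and 0.29. In aged hearts Ppargc1a and Ppara were 1.5-fold higher in I/R and none lower, where 16.7% of 16761 genes were higher and 9.71% lower. The median of the 10 was 0.18 and that of all genes 0.09, and Ppargc1a and Ppara stayed past 1.5-fold relative to the latter, at 0.60 and 0.64.

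The aging comparisons share their libraries with the I/R comparisons, so the values are given side by side and not as separate evidence. In aged over young sham, Ppargc1b, Ppara and Nrf1 were 1.5-fold lower and none higher, where 19.8% of 15875 genes were lower and 8.99% higher. At the border, Nrf1 (log2 -0.59) was just past 1.5-fold and Ppard (log2 -0.58) and Esrra (log2 -0.57) just short of it. In aged over young I/R, 6 regulators (Ppargc1a, Ppargc1b, Esrra, Esrrb, Ppara and Nrf1) were 1.5-fold higher and none lower, where 42.7% of 16491 genes were higher and 4.38% lower. All 10 were above 0 on the CPM scale, where the lower quartile of all genes was also above 0, at 0.06. Ppard, Rxra and Tfam turned to -0.20, -0.08 and -0.09 with the median of all genes as the reference.

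**Figure D3:**
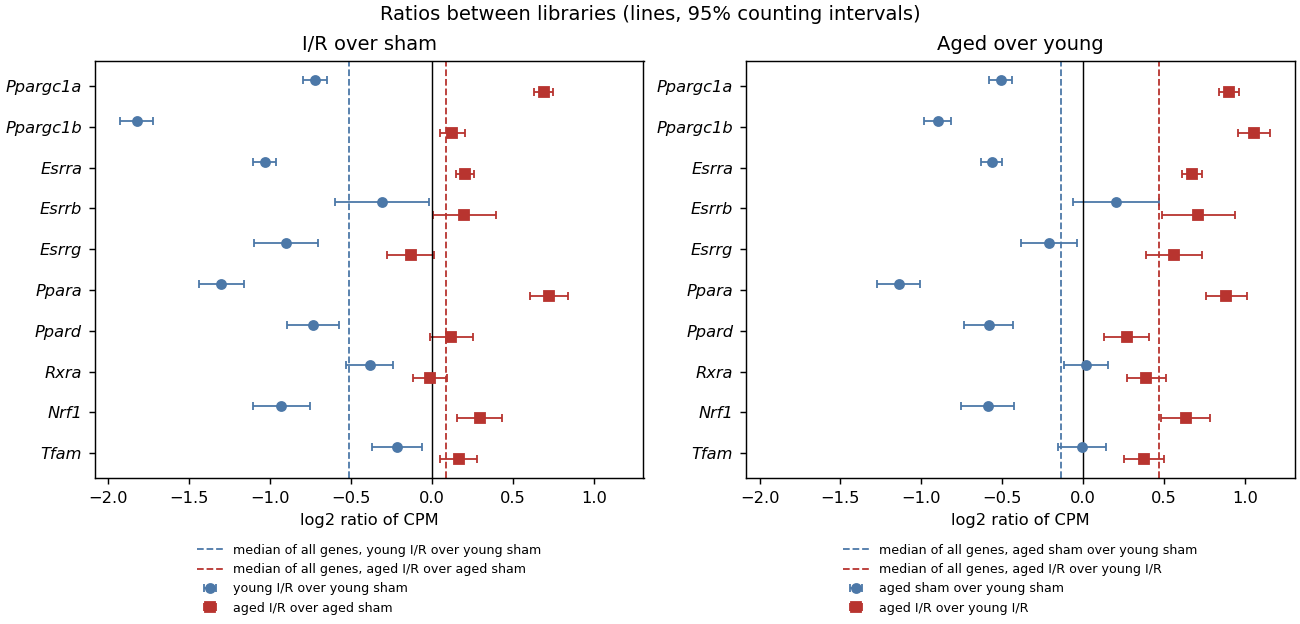
Log2 ratios of CPM between libraries for the 10 regulators, with I/R over sham on the left (circles, young; squares, aged) and aged over young on the right (circles, sham; squares, I/R), 95% exact conditional intervals as lines and the medians of all genes as dashed lines. All 10 circles on the left lie below 0 and 7 of them left of the dashed line at -0.51, while Ppargc1a and Ppara in aged mice lie at 0.69 and 0.72.

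The I/R over sham ratio was higher in aged than in young mice for all 10 regulators, by log2 0.37 (Rxra) to 2.02 (Ppara). It was higher by at least 1.5-fold for 7 of them (Ppargc1a, Ppargc1b, Esrra, Esrrg, Ppara, Ppard and Nrf1). Over 15410 genes 50.6% passed that mark and the median difference was 0.60. Only 40.6% of the genes lay below Rxra, and the share of all genes above 0 was not counted. Ppara at 2.02 (interval 1.84 to 2.21) and Ppargc1b at 1.95 (1.82 to 2.08) lay above 91.0% and 90.1% of the genes. With the median of all genes as the reference, the difference turned to -0.09 for Esrrb (interval -0.43 to 0.25), -0.22 for Rxra and -0.21 for Tfam.

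The genes that surround the regulators are described by counts and medians over lists written by hand, without a test. The lists were chosen with earlier results of these data known. Of each list the 2 highest and 2 lowest genes in young I/R over young sham are named. Cofactors and upstream regulators, a list of 25 genes, had 11 genes 1.5-fold lower and 1 higher in young mice and a median of log2 -0.56, where 46.1% of all genes were lower and 6.36% higher with a median of -0.51, so the list lay near the background. In aged mice none was lower and 5 were higher with a median of 0.25, where 9.71% and 16.7% of all genes passed with a median of 0.09. Mef2c, a factor of heart muscle genes, went from 220.2 to 82.9 CPM in young mice and from 159 to 155 CPM in aged mice. Sirt3, the mitochondrial deacetylase, went from 57.2 to 22.3 CPM and from 32.0 to 30.5 CPM in the same way. Pprc1, the third member of the PGC-1 family, went from 10.7 to 18.8 CPM in young mice (log2 0.81, interval 0.61 to 1.02) and from 11.6 to 12.2 CPM in aged mice, a ratio that turned below 0 with the median of all genes as the reference. Prkaa1, a catalytic subunit of the energy sensor AMPK, stood at log2 0.08 and -0.28. Pprc1 was the 1 higher gene among the 25, where 6.36% of all genes were higher.

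Of 12 other nuclear receptors, 6 were 1.5-fold lower and none higher in young I/R, with a median of -0.70, beside 46.1% of all genes lower and a median of -0.51. The thyroid hormone receptor Thra went from 95.9 to 42.6 CPM in young mice and from 80.8 to 104 CPM in aged mice. Nr1d1, a receptor of the circadian clock, was low after I/R at both ages, from 72.1 to 29.9 CPM and from 89.2 to 38.5 CPM. The vitamin D receptor Vdr, with 132 UMIs in all, had an interval of -0.38 to 1.46 around 0.51 in young mice, and the retinoic acid receptor Rara stood at -0.04, which is above the median of all genes. Of 13 genes that keep and transcribe mitochondrial DNA, 7 were 1.5-fold lower in young I/R and none higher, with a median of -0.64, beside the same 46.1% and -0.51 over all genes. None passed in aged mice, where the median was 0.04 and turned to -0.05 with the median of all genes as the reference. Mterf1a and Mterf4, of the mitochondrial termination factor family, stood at -1.66 and -1.18 in young mice. Tfb2m, which helps start transcription in mitochondria beside Tfam, stood at 0.28 and the protease Lonp1 at 0.15.

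In young I/R over young sham, where the regulators were lower, genes known as their targets had medians above 0. Since the lists were chosen with earlier results known, this contrast is a description and not independent evidence. The list of PPARα targets holds Pdk4, which the paper singled out in these same data. Of 29 PPARα targets, 6 were 1.5-fold higher and 2 lower in young I/R over sham, with a median of log2 0.18, while Ppara itself was at -1.30. Over all genes 6.36% were higher and 46.1% lower in that comparison, with a median of -0.51. Pdk4, the kinase that shuts off pyruvate oxidation, went from 76.3 to 533 CPM in young mice (log2 2.80, interval 2.74 to 2.87). In aged mice it went from 39.1 to 35.2 CPM. The paper reports higher Pdk4 in annotated cardiomyocytes after I/R at both ages, and in aged over young sham. Over whole libraries Pdk4 was at log2 -0.15 in aged I/R over aged sham and -0.96 in aged over young sham, the opposite direction. What sets these values apart was not tested. Angptl4, an inhibitor of lipoprotein lipase, went from 11.03 to 61.4 CPM in young mice and from 5.59 to 5.09 CPM in aged mice. Cpt1a, which admits fatty acids to the mitochondria, and the lipoprotein receptor Vldlr were lowest in young mice at -0.73 and -0.70. Of 25 mitochondrial genes known as targets of the estrogen-related receptors and PGC-1, none passed 1.5-fold in young mice, 22 were above 0 and the median was 0.15, where Esrra was at -1.04. In aged mice 1 was higher and 2 were lower, with a median of -0.15, where 16.7% of all genes were higher and 9.71% lower. Atp5a1, a subunit of ATP synthase, and Cox4i1, of complex IV, stood at 0.44 and 0.37 in young and -0.47 and -0.61 in aged mice. Idh3a and Idh3b, subunits of an enzyme of the citric acid cycle, stood at -0.06 and -0.17 in young mice, both above the median of all genes, and 0.20 and 0.38 in aged mice.

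The 13 genes encoded by mitochondrial DNA, whose transcription Tfam starts, had a median of 0.41 in young I/R over sham, with 3 of them 1.5-fold higher and none lower. Over all genes 6.36% were higher and 46.1% lower there. In aged mice the median was -0.37 with 6 lower and none higher, where 9.71% of all genes were lower and 16.7% higher. mt-Co1, a subunit of complex IV, went from 23095 to 38451 CPM in young mice and from 41377 to 23827 CPM in aged mice, and mt-Co3 stood at log2 0.61 and -1.18. mt-Nd2 and mt-Atp8 stood at -0.20 and -0.02 in young mice, both above the median of all genes, and 0.34 and 0.55 in aged mice. Tfam was at -0.22, also above that median, and 0.16 in the same comparisons. Together the mitochondrially encoded genes took a smaller share of UMIs in young sham and aged I/R, where the Malat1 share was larger. The part of this make-up in their medians was not tested. In aged over young sham the regulators had a median of -0.54 and Ppara stood at -1.14. Of the 29 PPARα targets 8 were above 0, 4 were 1.5-fold lower and 1 was 1.5-fold higher. Their median of -0.14 was also the median of all genes. In the same comparison 19.8% of all genes were lower and 8.99% higher. The targets of the estrogen-related receptors and PGC-1 had none past 1.5-fold and a median of 0.09 there, and the mitochondrially encoded genes 4 higher, none lower and a median of 0.49. In aged over young I/R the PPARα targets had 9 genes 1.5-fold lower and none higher (median -0.50), the targets of the estrogen-related receptors and PGC-1 had 2 lower and none higher (median -0.25), and the regulators had 6 higher and none lower (median 0.65), where 42.7% of all genes were higher and 4.38% lower (median 0.47). The comparisons share libraries, and whether the target genes and the regulators are linked was not tested.

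**Figure D4:**
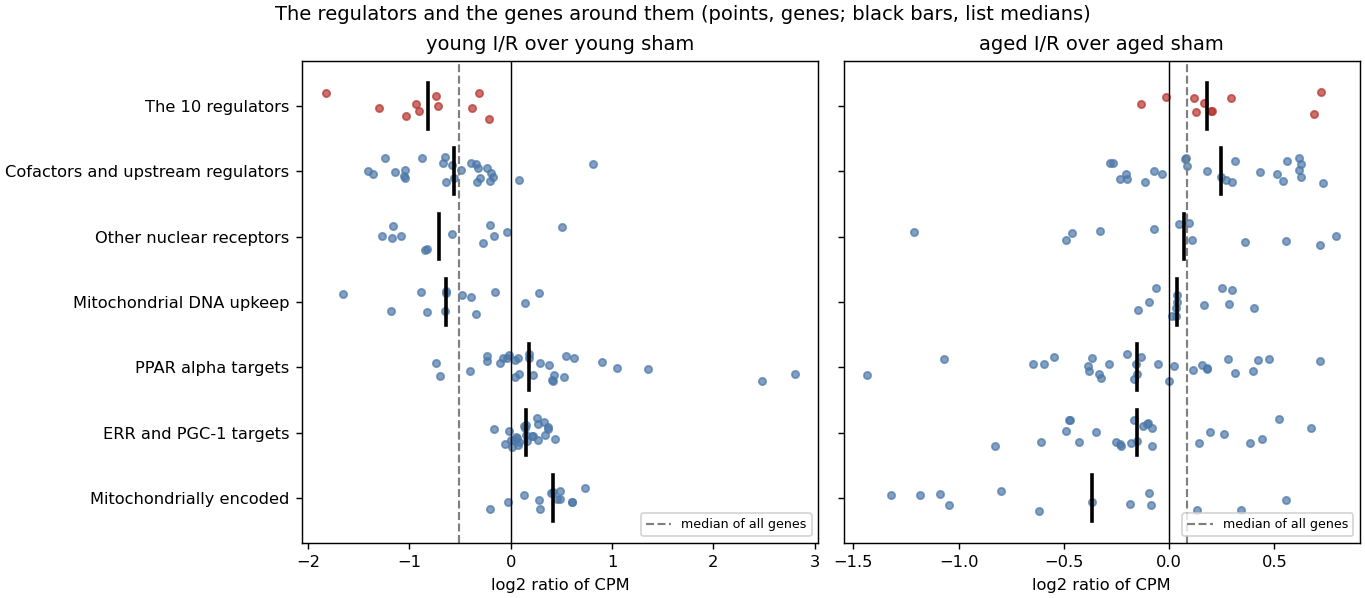
Log2 ratios of CPM in I/R over sham for the 10 regulators and for the genes of 6 hand-written lists, young mice on the left and aged mice on the right, with each point a gene, black bars the medians and dashed lines the median of all genes. In young mice the regulators (median -0.82) lie left of 0 and the 3 lower lists have medians of 0.18, 0.15 and 0.41, while in aged mice the regulators lie at 0.18 and those lists at -0.15, -0.15 and -0.37.

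To describe how the UMIs were spread over barcodes, the 241086 barcodes with at least 200 detected genes were clustered. The regulators and the genes of the 6 lists were left out, and 10 clusters were found. Beyond that minimum no barcodes were removed as empty droplets, and whether a barcode held a cell was not tested. A cluster is therefore not to be read as a cell population. No cluster met the rule for a cardiomyocyte-like name, since the summed level of cardiomyocyte markers was 89322 to 105737 CPM in every cluster and at most 1 of 18 markers was 1.5-fold higher in any of them. In a macrophage-like cluster, named by 5 markers, cardiomyocyte markers summed to 93275 CPM, and the regulators stood close to their levels over all barcodes. Ppargc1a was at 123 and 71.9 CPM in the sham and I/R libraries of young mice there and 88.2 and 126 CPM in those of aged mice, and Ppara at 38.0, 18.0, 21.6 and 29.9 CPM. A cluster of 13843 barcodes was led by Myl4, Myl7, Sln and Nppa, which were not among the 18 markers. The paper used Myl4 and Myl7, and Nppa except in its sham comparison, to annotate cardiomyocytes. The 18 markers summed to 95108 CPM in that cluster. No barcode was assigned to cardiomyocytes.

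A cluster of 32617 barcodes stood apart by its leading gene Mhrt, a nuclear RNA antisense to the myosin gene Myh7 that is made in heart muscle. It was picked after the clusters had been seen, and it held 26.5% of the clustered barcodes in young sham and 11.3% to 12.98% in the other libraries. Within each library Ppargc1b, Esrra and Ppara were higher in that cluster than in the sum of the others, with intervals above 0 in 4 of 4 libraries, and Ppargc1a in 3 of 4. The same ratio was not computed over all genes, so these counts have no background. In aged I/R the cluster led by Mhrt was not the highest for Esrra or Ppara. The highest level in any cluster there was 161 CPM for Esrra and 37.5 CPM for Ppara, against 134 and 35.6 CPM in the cluster led by Mhrt. Ppara stood at 83.0 CPM in it and 41.0 in the others in young sham, and at 35.6 and 31.3 CPM in aged I/R. Ppargc1b ranged from log2 0.35 in aged I/R to 0.96 in young I/R, and Esrra from 0.28 in aged I/R to 0.90 in young sham. Rxra and Tfam were below 0 in 4 of 4 libraries, at -0.63 to -0.11 and -0.69 to -0.24, with 1 and 2 of the intervals wholly below 0. Malat1 was log2 0.92 to 1.47 higher in the cluster and the sum of cardiomyocyte markers 0.13 to 0.22, and their part in the regulators' levels was not tested.

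**Figure D5:**
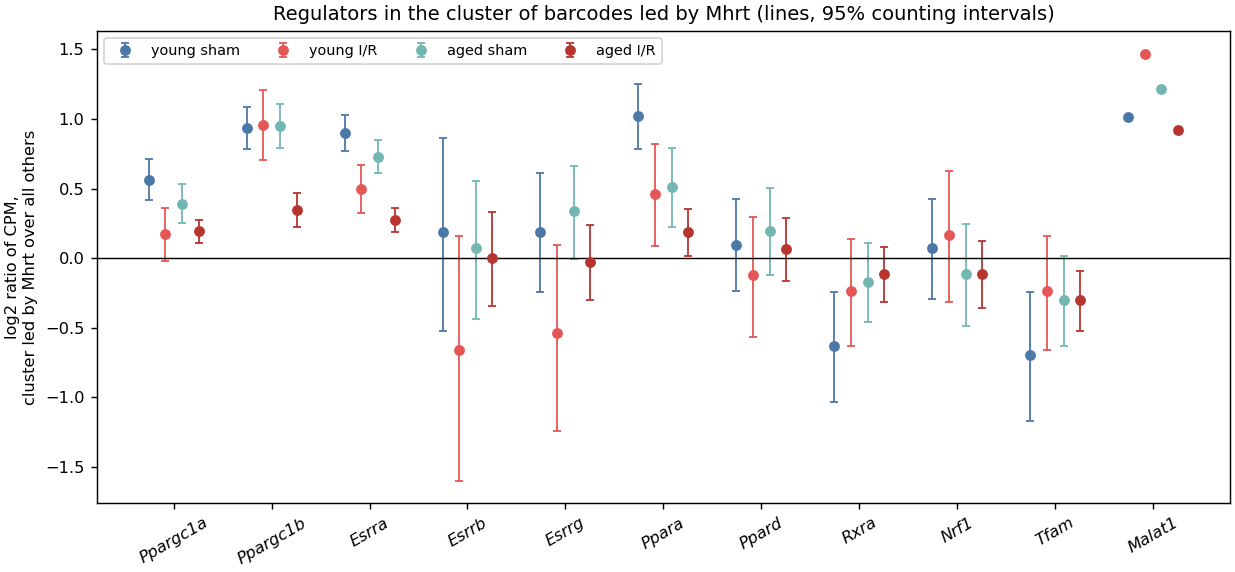
Log2 ratio of CPM in the cluster of barcodes led by Mhrt over that in the sum of all other clusters, within each of the 4 libraries, for the 10 regulators and for Malat1, with 95% exact conditional intervals as lines. Ppargc1a, Ppargc1b, Esrra and Ppara lie above 0 in 4 of 4 libraries and Rxra and Tfam below 0, and the intervals are wide for Esrrb and Esrrg.

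Inside the cluster led by Mhrt, a decrease in young I/R over young sham was also present for the regulators other than Rxra and Tfam. Rxra and Tfam were at log2 -0.06 (interval -0.57 to 0.45) and 0.22 (-0.35 to 0.79) there, against -0.39 and -0.22 over the whole library. The cluster itself differed between these libraries. Mhrt stood at 3739 CPM in it in young sham and 641 CPM in young I/R, and Malat1 at 148984 and 54742 CPM. I/R over sham in young mice was log2 -1.84 (interval -2.22 to -1.47) for Ppara, -1.91 (-2.16 to -1.66) for Ppargc1b, -1.39 (-1.58 to -1.21) for Esrra and -1.13 (-1.34 to -0.92) for Ppargc1a, where the median of all genes was -0.34. In aged mice Ppargc1a and Ppara were at 0.50 and 0.42, but Ppargc1b and Esrra were at -0.40 (interval -0.57 to -0.22) and -0.18 (-0.32 to -0.05), below 0 where the whole library was above. With genes scaled over all libraries together before clustering, these became -0.09 (interval -0.80 to 0.64) for Ppargc1b and 0.66 (0.08 to 1.25) for Esrra, which turned the direction of Esrra. In barcodes of 300 to 500 UMIs, a range chosen after depth had been seen, I/R over sham in young mice was -1.54 for Ppara and -2.01 for Ppargc1b. In aged mice these were 0.87 and 0.14. The range held 22571 of 92200 barcodes in young sham and 58764 of 102883 in young I/R. It held 52250 of 100342 in aged sham and 17490 of 91124 in aged I/R, so it took unlike parts of the libraries.

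The levels of 3 regulators over 38 sums of a cluster in a library were set beside those of 2192 genes with at least as many UMIs as Ppargc1b, the sparsest of the 3. Pearson's r with Ppargc1a was highest for Abhd18 (0.95), Sptbn1 (0.95) and Clip1 (0.94). For Esrra it was highest for Atcayos (0.96), Rsrp1 (0.94) and Dot1l (0.94), and for Ppargc1b for Vegfa (0.97), Rnf207 (0.96) and Cacnb2 (0.96). The sums share libraries, and so also their depth and Malat1 share, so the coefficients are descriptions.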

How the data were processed

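The authors deposited raw UMI counts per gene and barcode from 4 libraries prepared on the 10x Chromium system. The submitters' processing notes name Cell Ranger 6.0.2 and mm10; whether introns were counted and how strand was used is not given in the sources used here. The counts of all barcodes of a library were added up and scaled to CPM, with 1 library for each of 4 conditions and no tests. Intervals are exact Poisson for a level, exact conditional for a ratio and by a normal approximation for a difference of log2 ratios, all at 95%, and cover counting error only. Called means at least 1.5-fold, among genes with at least 20 UMIs over the pair. Genes named beside the regulators are the 2 highest and 2 lowest of each list in young I/R over young sham among those with at least 100 UMIs, and the 3 genes most like each of the 3 regulators with the most UMIs. Regulators and lists were chosen with earlier results of these data known. Clustering used 2000 variable genes, 10 principal components, 20 neighbours and Leiden resolution 1, and a name needed at least 3 markers at 1.5-fold and 1 among the 10 leading genes, a rule set after clusters had been seen. Doublets and empty droplets were not removed. A simulation of young I/R over young sham with 15454 genes was used to check the arithmetic of the ratios. In it 100% of 200 changed genes had the right direction and 95.7% of intervals held the true ratio. Its counts were drawn from 1 shared profile with counting error only. It therefore cannot show spread between libraries, a shift of make-up or the effect of the scaling. No column of per-sample values was left unused. The tools were scanpy 1.11.5, scipy 1.17.1, matplotlib 3.10.9, pandas 2.3.3 and numpy 2.4.6 in Python 3.11.15. Positions are from GENCODE vM21 (GRCm38).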

Additional observations from a re-analysis of the deposited data

Results flagged for a closer look

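For 7 of the 10 regulators, I/R over sham was below 0 in young and above 0 in aged mice with both counting intervals excluding 0, which marked them for a closer look. The share of all genes that met the same rule was not counted. The medians of all genes also lay below 0 in young mice (-0.51) and above 0 in aged mice (0.09). The difference of the log2 ratios, aged minus young, was 1.41 for Ppargc1a, 1.95 for Ppargc1b, 1.24 for Esrra, 0.51 for Esrrb, 2.02 for Ppara, 1.22 for Nrf1 and 0.38 for Tfam, beside a median of 0.60 over all genes. The difference was not tested, since each condition had 1 library. Relative to the median of all genes, this difference of ratios was -0.09 for Esrrb (interval -0.43 to 0.25) and -0.21 for Tfam (interval -0.40 to -0.02).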

How the results depend on the processing

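Scaling to the median of gene-wise ratios changed most: 7 of 40 ratios of regulators changed sign, 7 of 18 past 1.5-fold stayed so, and 2 regulators in place of 7 were 1.5-fold lower in young I/R over young sham and 1 in place of 6 higher in aged over young I/R. With totals that leave out Gm42418, Malat1 and mitochondrial genes, 3 were 1.5-fold higher in aged over young I/R. Summing only barcodes with at least 200 detected genes gave 6 in place of 3 that were lower in aged over young sham, and barcodes of 300 to 500 UMIs, an alternative chosen after seeing the data, also gave 6. The share of all genes past the mark was not counted under these scalings and barcode choices, nor at the 2-fold mark below, so these counts of regulators have no background. The cause of these moves was not tested. At 2-fold in place of 1.5-fold the counts were 3 lower in young I/R over young sham, 0 higher in aged I/R over aged sham, 1 lower in aged over young sham and 1 higher in aged over young I/R. With no filter on low counts, the share of all genes 1.5-fold higher was 17.5% in young I/R over young sham and 21.2% in aged over young sham, and the share lower was 20.3% in aged I/R over aged sham and 14.8% in aged over young I/R. No ratio of a regulator over whole libraries that was past 1.5-fold changed sign under another scaling or another choice of barcodes. The cluster led by Mhrt held 32617 barcodes, 18536 at Leiden resolution 2 and 11693 with genes scaled over all libraries together, and 0 clusters were cardiomyocyte-like in any, so the planned values for that class were not given. Inside the cluster led by Mhrt, 0 of 40 ratios of regulators changed sign at resolution 2, and 7 of 36 did with genes scaled together, where 4 more had 0 UMIs on one side and no value. No paired analysis was possible because each condition had 1 library, and none could be left out. Depth limits Esrrb and Esrrg most, and 1 library per condition means that condition and library cannot be told apart.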
